A study of Homo sapiens with 3 samples.

Results

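CCND1 and MYC are growth-control genes, and the regions described here are the stretches of TEAD occupancy and of H3K27ac around them in 786-O, an established human line of clear cell renal carcinoma. A region was included when its summit lay in chr11:69150000-69520000, around the CCND1 start at 69455873 and the stretch upstream of it, or in chr8:128650000-129150000, around the MYC start at 128748315 and the PVT1 stretch (hg19). This gave 59 of the 35241 TEAD regions and 100 of the 52667 H3K27ac regions on chromosomes 1 to 22 and X. The CCND1 window of 370 kb held 17 TEAD and 34 H3K27ac regions, and the MYC window of 500 kb held 42 and 66.

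The series has 3 libraries of 786-O chromatin, fixed in 1% formaldehyde for 10 min: an H3K27ac immunoprecipitation, a TEAD immunoprecipitation and an input. By its title the series concerns the action of YAP on a joint complex of TEAD and NF-κB. The peak names inside the TEAD list read TEF1 and TEF3, and the antibody is called TEAD here as in the label. Each group had 1 library of 1 line, so no value has a replicate check. An interval below covers counting error only. For fold it covers that of the summit reads alone, with the background taken as fixed. No peak list of the input was used here. The identity of the line was not checked against kidney marker genes, because no gene positions in hg19 other than the starts of CCND1 and MYC were used.

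CCND1 encodes cyclin D1, which binds CDK4 and CDK6 and drives phosphorylation of the RB protein at the G1 stage of the cell cycle. MYC encodes a basic helix-loop-helix transcription factor that dimerises with MAX and raises the expression of genes of growth and metabolism. Both genes are controlled by enhancers that lie far from the promoter, and in renal cells enhancers upstream of CCND1 and within PVT1, the noncoding gene downstream of MYC, are known to bind hypoxia-inducible factors. TEAD proteins bind DNA and recruit the Hippo pathway co-activators YAP and TAZ, mostly at enhancers. H3K27ac, acetylation of histone H3 at lysine 27, marks active promoters and enhancers. By gene order, LINC01488 precedes CCND1, with LTO1 and FGF19 after it, and CASC11 precedes MYC, with PVT1 after it. Both genes are transcribed towards higher coordinates, so upstream means lower coordinates here.

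The strongest TEAD occupancy of the CCND1 window lay far upstream of the gene. Fold is the enrichment at the summit over the local background of the peak caller, as the authors deposited it, and the reads at the summit were recovered from the fold and its p-value. At chr11:69234260-69235872, 220 kb upstream of the CCND1 start, TEAD reached 84.7-fold (95% counting interval 76.5 to 93.7), with 381 reads at the summit over a recovered background of 3.51. This was rank 25 of the 35241 TEAD regions, and its width of 1613 bp was the largest of the 17. It lay inside the strongest H3K27ac region of the window, chr11:69229549-69236650, which was 7102 bp wide at 32.7-fold (27.7 to 38.4) and ranked 223 of 52667. The TEAD summit lay 290 bp from the H3K27ac summit. Both marks therefore had their highest value in the window at the same place, near the 69.2 Mb stretch named as a renal enhancer in the choice of the window.

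Another 3 upstream TEAD regions of the CCND1 window exceeded 60-fold. The region at chr11:69378943-69379688, 76.6 kb upstream of the start, reached 70.8-fold (61.3 to 81.3) with 198 reads. The region at chr11:69251629-69252423, 204 kb upstream, reached 69.9-fold (61.8 to 78.8) with 265 reads, and the region at chr11:69311826-69312586, 144 kb upstream, reached 62.2-fold (55.7 to 69.2) with 331 reads. The fold intervals of these 3 overlapped one another, so their order was not resolved, and the interval of the 84.7-fold region overlapped those of the first and the second of them. The next highest fold in the window was 28.4, and its interval (22.9 to 34.9) lay below all 4.

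**Figure D1:**
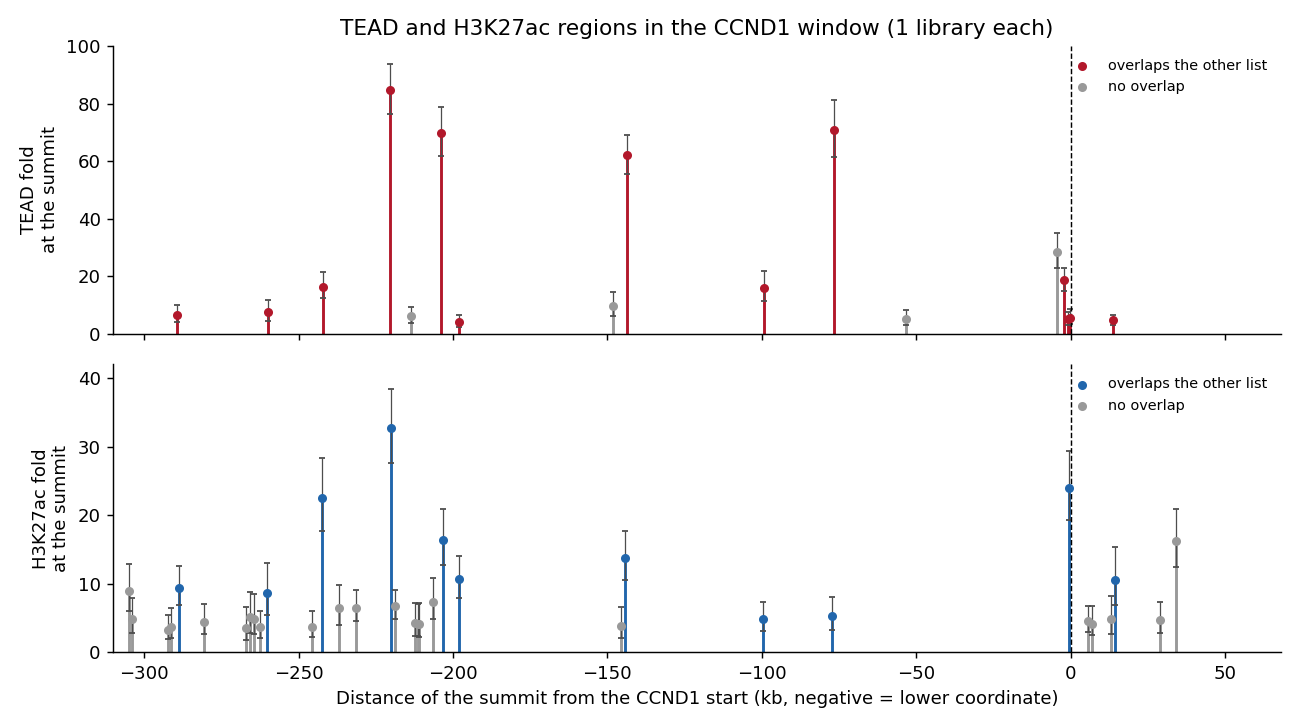
TEAD (top) and H3K27ac (bottom) fold at the summit of each region of the CCND1 window, by distance from the CCND1 start in kb; points are single regions, bars are 95% counting intervals, grey marks a region with no overlap in the other list. The 4 highest TEAD regions, from 62.2- to 84.7-fold, stand between 220 and 76.6 kb upstream, while the regions within 5 kb of the start reach 28.4-fold.

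The fold of the H3K27ac region that overlapped each of these 4 TEAD regions differed widely. It was 32.7-fold at 220 kb upstream, 16.4-fold at 204 kb and 13.7-fold (10.5 to 17.6) at 144 kb. At 76.6 kb upstream the only overlapping H3K27ac region, chr11:69378540-69379053, was 514 bp wide at 5.23-fold (3.25 to 8.02), below the 6.54-fold median of all H3K27ac regions. The TEAD summit there lay outside the acetylated region, 492 bp from its summit. TEAD regions of near-equal fold, 70.8 and 69.9, thus overlapped H3K27ac regions whose fold intervals lay apart (3.25 to 8.02 against 12.7 to 20.9). At 99.1 kb upstream a TEAD region of 15.98-fold (11.4 to 21.9) likewise touched a narrow H3K27ac region of 587 bp at 4.86-fold with its summit outside it.

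TEAD within 5 kb of the CCND1 start was weaker than at the 4 highest distal sites. Of the 13 regions beyond 5 kb, 4 exceeded the strongest near region in fold, and the median was 12.1-fold within 5 kb and 12.8-fold over 50 kb upstream. Within 5 kb of the start lay 4 TEAD regions, all on the upstream side. The highest, chr11:69451188-69451726 at 4.42 kb upstream, had 28.4-fold and 88 reads (70.6 to 108). It overlapped no H3K27ac region and ended 1.12 kb before the acetylated promoter region, which makes it the strongest TEAD region of the window without H3K27ac overlap. The next, chr11:69452976-69454494 at 2.13 kb upstream, had 18.6-fold (15.0 to 22.9) and also 88 reads, over a background of 3.77 against 2.13. The remaining pair had folds of 4.99 (3.07 to 7.74) at chr11:69454950-69455285 and 5.58 (3.47 to 8.55) at chr11:69455618-69455947, whose summit lay 0.044 kb from the start. The 4 distal regions had between 198 and 381 reads at the summit, so the strongest distal value was 2.98 times the strongest near value in fold and 4.33 times in reads.

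Acetylation at the CCND1 promoter was among the highest of the window. The region over the start, chr11:69452847-69460489, was 7643 bp wide, the widest of the 34, at 23.9-fold (19.3 to 29.3), and held 3 of the 4 near TEAD regions. Its interval overlapped those of the 32.7-fold region and of the region at chr11:69210909-69215915, 242 kb upstream, which had 22.5-fold (17.7 to 28.4) with a TEAD region of 16.4-fold (12.3 to 21.6) inside it. Downstream of the start, chr11:69469910-69470814 had 10.5-fold and touched a weak TEAD region of 4.69-fold at 13.6 kb. The region at chr11:69488785-69490394, 34.0 kb downstream, had 16.3-fold and no TEAD region, and was the only H3K27ac region of at least 10-fold in the window without one. The seventh of the 8 highest H3K27ac regions, chr11:69256536-69258969 at 10.7-fold, held the weakest TEAD region of the window, at 4.04-fold.

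The acetylated regions of the CCND1 window fell into separate clusters. Joining regions over gaps of up to 12500 bp gave 8 domains, of which 2 were among the 863 large domains of the genome (those past the point where the ranked curve of summed fold times width reaches slope 1). The upstream one, chr11:69209701-69258969, spanned 49.3 kb, held 12 H3K27ac regions and 5 TEAD summits, and ranked 156 of 22587. The one at the gene, chr11:69452847-69470814, spanned 18.0 kb with 5 H3K27ac regions and 4 TEAD summits and ranked 780. Between the 70.8-fold TEAD site and the promoter, 73.8 kb held no H3K27ac region, and 3 TEAD summits lay in it: that of the 70.8-fold region itself, 1 of 5.15-fold and the 28.4-fold one near the gene.

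The MYC window, of 500 kb against 370 kb at CCND1, had more TEAD regions of moderate fold. As drawn it held none near 60-fold, though a region of 87.0-fold lay 39.0 kb past its end. The highest within the window, chr8:128821410-128822895, lay 74.2 kb downstream of the MYC start and had 34.5-fold (29.7 to 39.8). It had 183 reads over a background of 4.34 and rank 984 in the list. The second, chr8:129139612-129140553 at 392 kb downstream, had 27.7-fold (23.7 to 32.3) and 163 reads, and the third, chr8:128919592-128920611 at 172 kb, had 24.6-fold (20.4 to 29.3) and 121 reads. The fourth, chr8:128981514-128982808 at 233 kb, had 21.8-fold (18.3 to 25.8). The intervals of neighbours in this order overlapped, while that of the first did not overlap those of the third and the fourth. The next 4 had 18.3-fold at chr8:128832099-128833162, 17.4-fold at chr8:128820028-128820660, and 16.6-fold at both chr8:128866100-128867454 and chr8:128863797-128864695. All 8 overlapped an H3K27ac region and lay between 72.0 and 392 kb downstream of MYC.

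**Figure D2:**
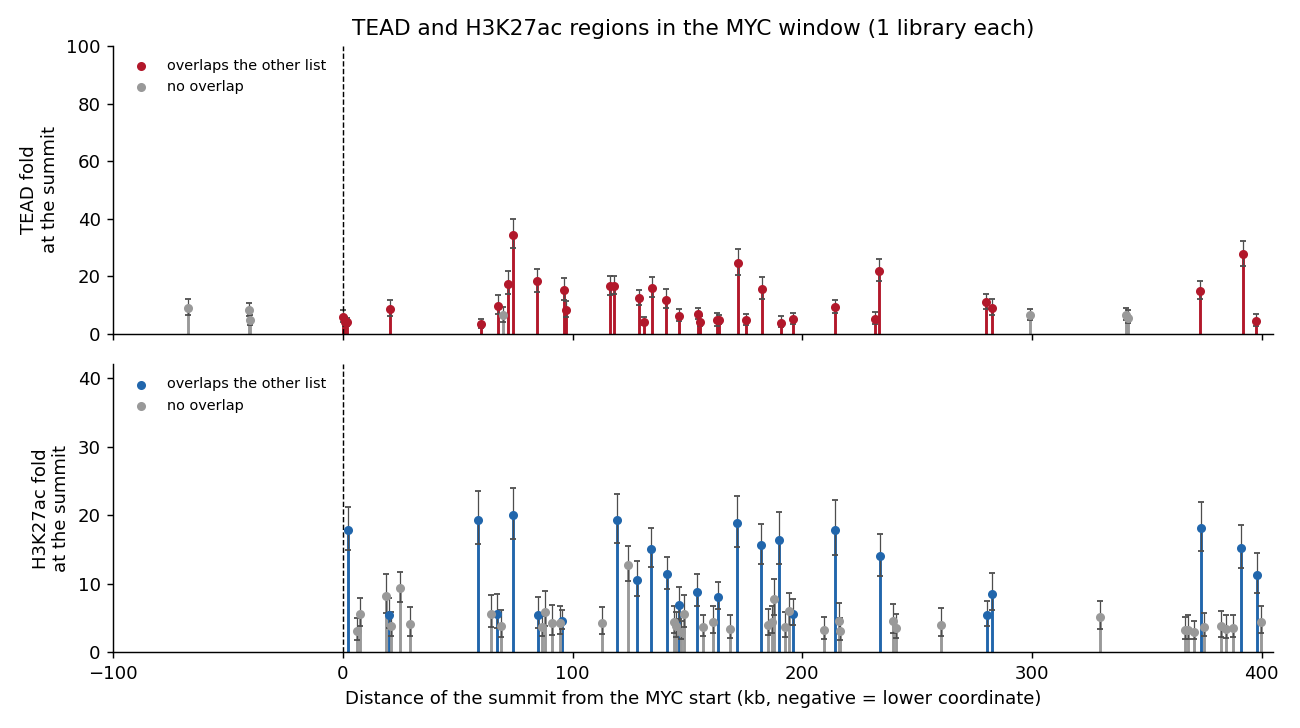
TEAD (top) and H3K27ac (bottom) fold at the summit of each region of the MYC window, by distance from the MYC start in kb, on the axes used for CCND1; points are single regions, bars are 95% counting intervals, grey marks a region with no overlap in the other list. All 66 H3K27ac regions have their summit downstream of the start, and the TEAD regions of highest fold lie at 74.2, 392, 172 and 233 kb.

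TEAD fold at the MYC promoter was below that of many regions farther away. Within 5 kb of the start lay 3 TEAD regions, chr8:128747855-128748700 at 5.95-fold (4.08 to 8.41), chr8:128749069-128749355 at 4.08-fold (2.72 to 5.91) and chr8:128749891-128750307 at 4.02-fold (2.82 to 5.57). Their intervals overlapped, and each fold was below the 7.14 median of all TEAD regions. Their summit reads, 30, 26 and 34, were above the list median of 24, over backgrounds of 4.21, 5.61 and 7.72 reads. Of the 39 MYC-window regions farther away, 15 had an interval wholly above that of the strongest promoter region. All 3 lay in a single H3K27ac region over the start, chr8:128746468-128752281, 5814 bp wide at 17.8-fold (14.9 to 21.2), whose summit was 2.09 kb downstream of the start. Within 5 kb of the CCND1 start, the 28.4- and 18.6-fold TEAD regions, 4.42 and 2.13 kb upstream, had intervals above those of all 3 at MYC. The regions nearer to the CCND1 start, of 4.99-fold (3.07 to 7.74) and 5.58-fold (3.47 to 8.55), had intervals that overlapped those of all 3.

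The median H3K27ac fold was 5.30 in the MYC window (range 2.99 to 19.99) and 5.03 in the CCND1 window, both below the 6.54 of the list. Median background at H3K27ac regions was 4.22 reads at MYC and 2.78 at CCND1, against 2.82 over the list. Median summit reads were 22.5 at MYC and 19 at CCND1, against 24. The 8 highest H3K27ac regions of the MYC window ranged from 16.4- to 19.99-fold with overlapping intervals. They were chr8:128818935-128824643 (19.99-fold), which held the 34.5- and the 17.4-fold TEAD regions, chr8:128806078-128809991 (19.4-fold), chr8:128861983-128870490 (19.3-fold), chr8:128917964-128926407 (18.8-fold), chr8:129120155-129122735 (18.1-fold), chr8:128960573-128963910 (17.9-fold), the promoter region (17.8-fold) and chr8:128937739-128940094 (16.4-fold). TEAD under these 8 ran from 3.30-fold to 34.5-fold. The 19.4-fold region, 58.6 kb downstream of MYC, held only a TEAD region of 3.30-fold (1.97 to 5.24), the lowest of the 42. Similar acetylation thus came with TEAD values that differed by far more than counting error of the summit reads.

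Of the 9 H3K27ac domains that reached into the MYC window, 3 were large. The domain chr8:128860975-128944656 spanned 83.7 kb with 25 H3K27ac regions and 16 TEAD summits, the strongest at 24.6-fold, and ranked 53 of 22587. The domain chr8:129114677-129206259 ranked 88 and ran past the end of the window, and chr8:128806078-128846261 ranked 559, with 8 TEAD summits. The domain over the MYC start, chr8:128746468-128777867, spanned 31.4 kb and ranked 1320, so it was not among the large ones. The order at CCND1 was alike in that the domain over the start ranked below the distal one.

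Upstream of MYC no acetylation was called over a long stretch. From 128491734 to 128746468, 255 kb that begin before the window, there was no H3K27ac region, and 3 TEAD regions lay in it. They were chr8:128680631-128681152 at 8.94-fold (6.45 to 12.1), 67.4 kb upstream and the strongest of the window without H3K27ac overlap, chr8:128707006-128707527 at 8.20-fold, and chr8:128707854-128708276 at 4.69-fold. A region without a called H3K27ac peak is not shown to lack the mark at this depth. In the CCND1 window 16 of the 17 TEAD summits and 28 of the 34 H3K27ac summits lay upstream of the start. The windows are not centred on the genes: 306 kb (82.7%) of the CCND1 window and 98.3 kb (19.7%) of the MYC window lie upstream, so these counts do not show a preferred side.

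The local background differed between the loci, and fold is measured against it. Recovered background at TEAD regions had a median of 2.13 reads (range 1.30 to 5.61) in the CCND1 window and 4.34 reads (2.47 to 7.72) in the MYC window, against 2.45 over all TEAD regions. All 42 MYC-window regions had a background above that overall median, as did 8 of 17 in the CCND1 window. The median was 3.23 reads on chromosome 8 and 2.26 on chromosome 11. In reads at the summit, which the background does not divide, the medians were 30 in the CCND1 window, 39 in the MYC window and 24 over the list. The strongest CCND1-window region exceeded the strongest MYC-window region 2.46 times in fold and 2.08 times in reads (344 to 421 against 157 to 212 reads). This holds within the windows as drawn. The 87.0-fold region past the end of the MYC window lay inside the interval of the strongest CCND1-window region (76.5 to 93.7). With it counted, the order of the loci by fold is not resolved. The lead in reads likewise holds only for the windows as drawn, since the reads of that region were not set beside it. The highest summit reads of any TEAD region on chromosome 8 were 431, against 381 in the CCND1 window. DNA copy number was not measured, and its part in the background was not tested.

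**Figure D3:**
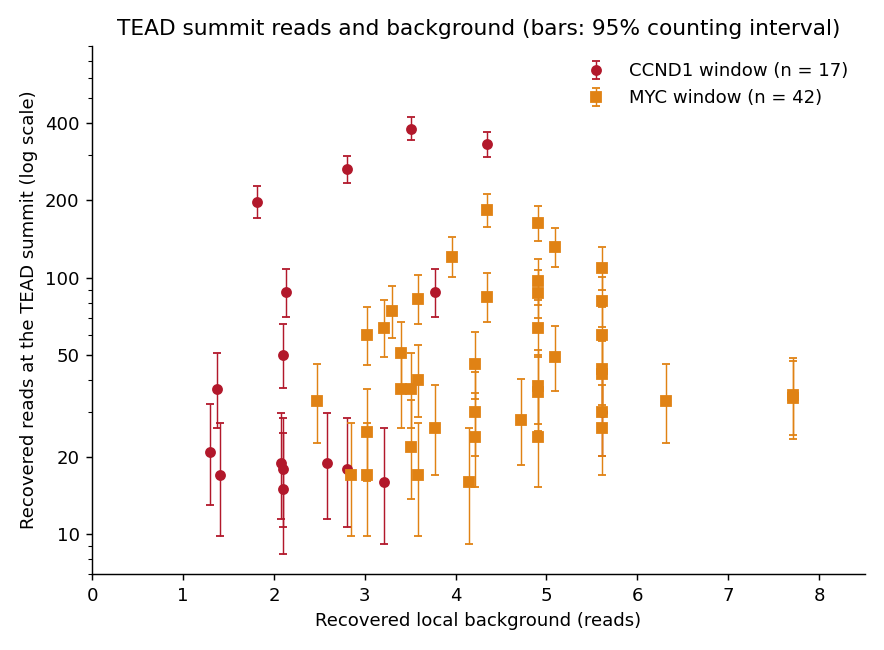
Recovered reads at the TEAD summit (log scale, bars are 95% Poisson intervals) against the recovered local background in reads, for the 17 TEAD regions of the CCND1 window and the 42 of the MYC window. The CCND1-window regions include the 4 highest read counts, from 198 to 381, and the MYC-window regions sit at higher background, from 2.47 to 7.72 reads.

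The 4 regions with most reads held 72.9% of the summed summit reads of the 17 TEAD regions in the CCND1 window and 25.8% of those of the 42 in the MYC window. An even spread would give 23.5% and 9.52%, so part of the contrast follows from the unequal numbers of regions. The cut of 4 is also the number of CCND1-window regions above 60-fold, which favours a high share there. TEAD fold had quartiles of 5.58, 9.56 and 28.4 in the CCND1 window and of 4.87, 8.32 and 15.1 in the MYC window, against 5.33, 7.14 and 11.3 over all TEAD regions. At least 10-fold was reached by 8 of 17 regions at CCND1 (47.1%, 95% Wilson interval 26.2 to 69.0%) and 15 of 42 at MYC (35.7%, 22.99 to 50.8%). The share over the whole TEAD list was 30.4%, inside both intervals. At least 50-fold was reached by 4 regions at CCND1 and 0 at MYC, against 0.931% of the list, a line drawn after the values had been seen.

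Most TEAD regions of both windows touched acetylated chromatin. Overlap of at least 1 bp with H3K27ac was found for 13 of 17 TEAD regions at CCND1 (76.5%, 52.7 to 90.4%) and 35 of 42 at MYC (83.3%, 69.4 to 91.7%), against 68.4% of all TEAD regions. The summit itself lay inside H3K27ac for 10 of 17 (58.8%, 36.0 to 78.4%) and 34 of 42 (81.0%, 66.7 to 90.02%), against 55.3% of the list. The MYC intervals lay above the list value in both measures, by little for the overlap (69.4% against 68.4%), and the CCND1 intervals included it. These intervals take the regions as independent. At MYC 9 H3K27ac regions held 2 or more TEAD regions, so a difference from the list is not settled. H3K27ac regions covered 14.0% of the CCND1 window and 24.5% of the MYC window, and the part of this coverage in the overlap was not tested. The median distance of a TEAD summit inside H3K27ac from the nearest H3K27ac summit was 373 bp at CCND1 and 629 bp at MYC, against 399 bp over the list.

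In the other direction, the share of acetylated regions with TEAD was near that of the genome. It was 11 of 34 at CCND1 (32.4%, 19.1 to 49.2%) and 25 of 66 at MYC (37.9%, 27.1 to 49.9%), against 41.7% of all H3K27ac regions. The strong ones nearly all carried TEAD: 7 of the 8 H3K27ac regions of at least 10-fold at CCND1 (87.5%, 52.9 to 97.8%) and 15 of 16 at MYC (93.8%, 71.7 to 98.9%) did so, against 65.1% of such regions genome-wide. The interval at MYC lay above that value and the interval at CCND1 included it, though both take neighbouring regions as independent. The exception at MYC was chr8:128870997-128873746, at 12.7-fold. H3K27ac regions of at least 10-fold made up 23.5% of those at CCND1 and 24.2% of those at MYC, with 30.5% in the whole list. Those with TEAD were wider, with medians of 2434 bp against 557 bp at CCND1 and 3256 bp against 583 bp at MYC, and a wide region can meet a TEAD region by size alone. At MYC 9 of the 66 held 2 or more TEAD regions (13.6%, 7.34 to 23.9%), at CCND1 1 of 34, against 5.87% of all.

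TEAD fold and the fold of the overlapping H3K27ac region were not closely ordered in either window. Spearman's rho between TEAD fold and the highest fold of an overlapping H3K27ac region was 0.13 over 13 regions at CCND1 and 0.15 over 35 at MYC, and −0.05 over the 24109 overlapping TEAD regions of the list. With TEAD summit reads in place of fold, rho was higher, at 0.25, 0.21 and 0.03. These are descriptions across sites of 1 pair of libraries, and several TEAD regions share the same H3K27ac region.

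**Figure D4:**
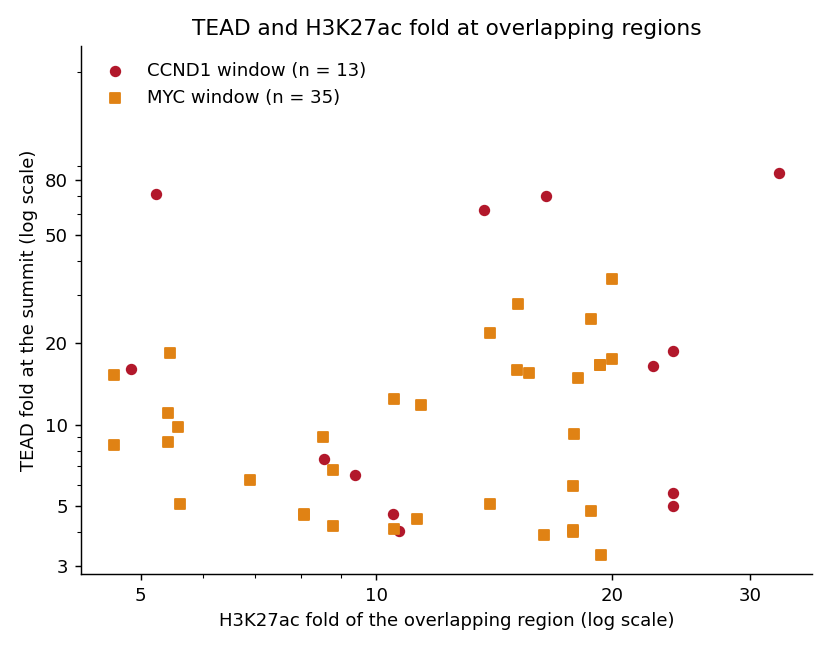
TEAD fold at the summit against the highest fold of an overlapping H3K27ac region (both log scales) for the 13 overlapping TEAD regions at CCND1 and the 35 at MYC; each point is 1 TEAD region. TEAD regions above 60-fold overlap H3K27ac regions from 5.23- to 32.7-fold, and H3K27ac near 20-fold carries TEAD from 3.30- to 34.5-fold.

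Set beside tiles of the genome, few matched the CCND1 window in TEAD height and few the MYC window in TEAD number. The height within the MYC window depends on where it ends, since a TEAD region of 87.0-fold lay 39.0 kb past its end. Chromosomes were divided into adjoining tiles as long as each window. Tiles with no region in either list were kept, which lowers the shares and the median counts given here. A highest TEAD fold of at least 84.7 occurred in 25 of 8189 tiles of 370 kb (0.305%), the tile with that region included, while 261 tiles (3.19%) held 17 or more TEAD regions. For MYC it was the count: 2 of 6058 tiles of 500 kb (0.033%) held 42 or more TEAD regions, while 800 (13.2%) had a TEAD region of at least 34.5-fold. The median tile held 3 TEAD regions at 370 kb and 4 at 500 kb. For H3K27ac, 102 of the 370 kb tiles (1.25%) held 34 or more regions and 7 of the 500 kb tiles (0.116%) held 66 or more. Per 100 kb, TEAD regions numbered 4.59 (2.68 to 7.36) at CCND1 and 8.40 (6.05 to 11.4) at MYC, with overlapping counting intervals. The windows were placed on these genes and the tiles were not, so these shares describe the loci and are no test.

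**Figure D5:**
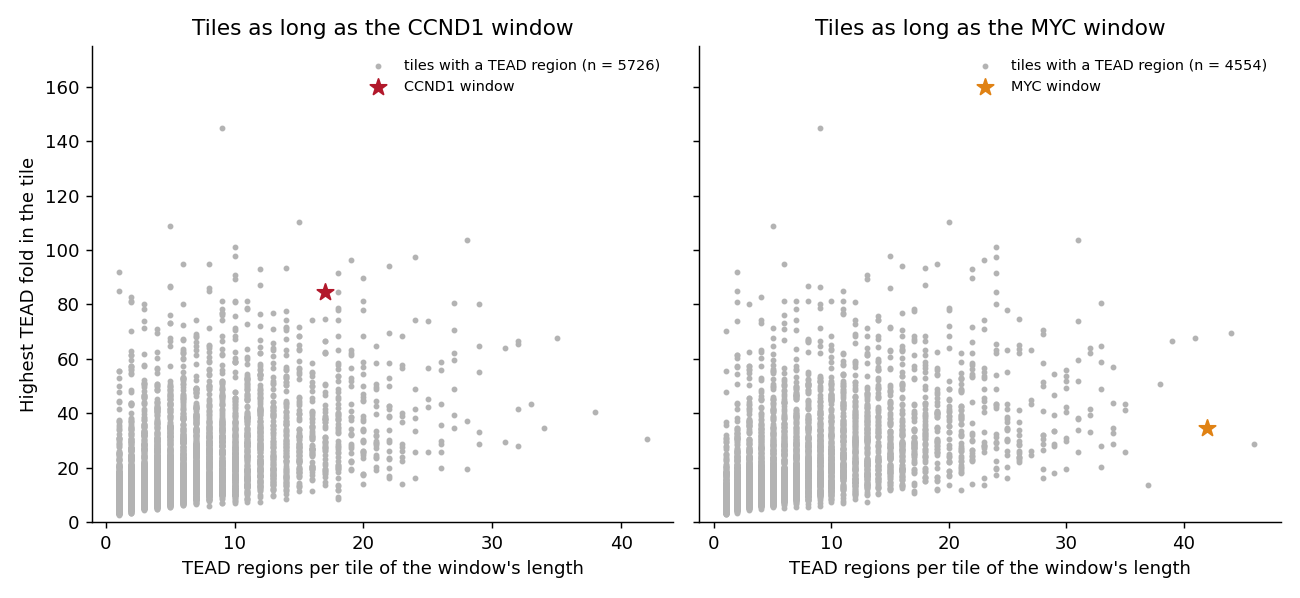
Highest TEAD fold against the number of TEAD regions in each genome tile with at least 1 TEAD region, for tiles of 370 kb (left) and 500 kb (right); grey points are tiles and the star is the CCND1 or MYC window. The CCND1 star stands at 17 regions and 84.7-fold, and the MYC star at 42 regions and 34.5-fold.

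The 4 TEAD regions above 60-fold at CCND1 spanned 144 kb between their outer summits. Over the whole genome 169 TEAD regions reached at least 60-fold, and the CCND1 window held the only stretch of up to 500 kb with 4 of them. With a line at 50-fold, which 328 regions reached, there were 2 such stretches, 1 of them at CCND1. With a line at 30-fold, which 1400 regions reached, 4 or more in a stretch of 500 kb occurred from 53 starting regions on 17 chromosomes, so the position of CCND1 by this count depends on the line. All 3 lines were drawn after the CCND1 values had been seen.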

How the data were processed

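The data are peak lists of chromatin immunoprecipitation sequencing, 1 for TEAD and 1 for H3K27ac, each from 1 library. Reads were handled with fastp, MACS2 and Bowtie2 2.4.5 on build hg19, per the submitters' processing notes. Their roles, the control and the threshold were not given in the sources used here. Per peak, the authors deposited a summit fold enrichment (a ratio to the local background) and the −log10 of its p-value and q-value. The lowest deposited −log10 q was 2.03 for TEAD and 2.05 for H3K27ac.

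Summit reads and background were recovered by finding, for each region, a whole number of reads and a background that together return both deposited values: the fold as the ratio of the pair after 1 is added to each, and p as the upper Poisson tail beyond that number of reads. The −log10 p was met within 0.002 for 100% of regions, and on simulated data the recovery returned the reads of 100% of 5000 TEAD and 4998 H3K27ac regions. The median depth at the summit was 24 reads in both lists. Intervals are 95%, exact Poisson for reads and Wilson for shares, and cover counting error only. Those for fold leave out the error of the background, which is taken as fixed. Those for shares take the regions as independent. The labels name no molecular identifiers. Coordinates count from 1. Named regions are those within 5 kb of either gene start, the 8 of highest fold per window and list, the strongest TEAD region without H3K27ac overlap, and others singled out after their values were seen.

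With 1 library a group no test was run. The members, lists and measures were chosen with earlier results of these data known. Lists of cell cycle, MYC-network and cell type marker genes were not used, since the gene table is on GRCh38; from it came only names and gene order, with both genes matched. Python 3.11.15, scipy 1.17.1 and pandas 2.3.3 were used.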

Additional observations from a re-analysis of the deposited data

How the results depend on the processing

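Of 38 alternative settings over both windows, 35 stayed within set limits, and 6 of the 38 were chosen after the data had been seen. The limits were 1.5 times for counts and ratios and the Wilson interval for shares. Medians had to stay in an interval taken from the ranked values, and the strongest region had to be the same. With few regions these limits are wide. Requiring the TEAD summit inside H3K27ac took the overlap share from 76.5% to 58.8% at CCND1 and from 83.3% to 81.0% at MYC, both within limits. Requiring a fold of at least 5 reduced the H3K27ac regions from 34 to 17 at CCND1 and from 66 to 34 at MYC, since fewer regions pass. Both changes were outside the limits. The share of tiles with fewer TEAD regions than the CCND1 window was 96.8%. It became 95.4%, also outside its limits, with tiles started at mid-steps and holding an H3K27ac region. For the MYC window the same change took this share from 99.97% to 99.93%, within limits. No paired analysis was possible because each group had 1 library, and for the same reason none could be left out. Depth limits the weak regions most: the TEAD region of fewest reads had 15 at CCND1 (8.40 to 24.7) and 16 at MYC (9.15 to 26.0).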

Other observations

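A TEAD region stronger than any in the MYC window lay past its end, which is itself 402 kb downstream of the MYC start. At chr8:129188526-129189911, 39.0 kb beyond the window's end, TEAD reached 87.0-fold, the highest fold on chromosome 8, above the 34.5-fold maximum within the window. The H3K27ac region at chr8:129189341-129192950 overlapped it at 29.6-fold, above the 19.99-fold maximum within the window. Both belong to the H3K27ac domain that crosses the window's end. Beyond the CCND1 window no region of comparable height followed: the strongest TEAD region within 60 kb after its end, chr11:69559022-69560000, had 20.7-fold. On the other side, the nearest TEAD region lay 60.5 kb before the CCND1 window and 159 kb before the MYC window.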
